A study of Mus musculus with 16 samples.

Results

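Mouse chromosome 2 carries a cluster of voltage-gated sodium channel genes, and the break ends over its 5 members, Scn3a, Scn2a, Scn1a, Scn9a and Scn7a, were counted here together with those in the sequence between them. The members were named by gene symbol among the 32052 protein-coding and long noncoding genes of GENCODE M21 on the main chromosomes of mm10. They were chosen by their place in the cluster after the measured difference in break ends between the hairpins had put Scn1a among the genes called, so values of that comparison are a description and are not tested. The libraries come from AB22, an established line of mouse malignant mesothelioma, a cancer of the serous membranes around the lungs and abdomen. All cells carried a doxycycline-inducible pTRIPZ hairpin, either a control (shCTRL) or one that targets HMGB1 (shHMGB1), an abundant nuclear protein that binds and bends DNA. Every culture was selected with puromycin and given doxycycline, and was synchronised in G1 before exposure to 0, 3, 5 or 10 Gy from a Caesium137 source, with 2 libraries for each hairpin and dose and 16 in all. BLISS, the assay used, ligates adapters to free DNA ends in fixed cells, so that each sequenced molecule marks a break end; it does not measure transcripts.

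Voltage-gated sodium channels open when a cell membrane depolarises and carry the inward current that starts an action potential. The genes of the cluster arose by duplication and serve different cells: Scn1a is prominent in inhibitory interneurons, Scn2a in the axons of excitatory neurons, Scn3a in the developing brain and Scn9a in pain-sensing neurons of the periphery. Scn7a encodes an atypical relative that senses extracellular sodium in glia. Loss of Scn1a function causes a severe childhood epilepsy, and loss of SCN9A function causes insensitivity to pain in humans. Whether these genes are silent in AB22 cells cannot be read from break ends, and the RNA-seq and ATAC-seq of the series were not analysed here.

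The cluster spans 1328 kb of mm10, of which the member bodies, exons and introns together, take up 694 kb. In order along the chromosome, Scn3a lies at chr2:65457118-65567627 on the minus strand and Scn2a at chr2:65620771-65767447 on the plus strand. Scn1a lies at chr2:66270778-66440840, Scn9a at chr2:66480080-66634962 and Scn7a at chr2:66673425-66784914, all on the minus strand. The wide gap between Scn2a and Scn1a holds Csrnp3, a transcription factor gene, Galnt3, which encodes a glycosyltransferase, and Ttc21b, which encodes a protein of the ciliary transport machinery. The long noncoding gene Gm13629 runs on the plus strand through part of Scn9a, and because the files keep no strand, ends of the overlap count for both genes.

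Depth limits every value that follows. The libraries held 131430 to 1010888 ends on the main chromosomes, and the cluster received 31 to 361 of them. In all, 3739 ends fell at 2997 positions of the span, and 98.9% of those positions were hit in a single library. Levels are given as CPM, counts scaled to a common library size, and an end was worth 0.989 CPM in the deepest library and 7.61 CPM in the shallowest, shCTRL at 3 Gy replicate 2. In that library the 4 ends of Scn1a, 30.4 CPM, had a 95% exact Poisson interval of 8.29 to 77.9 CPM, against 47.8 to 81.7 CPM for the 57 ends of shHMGB1 at 5 Gy replicate 1. These intervals cover counting error only. Libraries of shCTRL were shallower (median 505000 ends) than those of shHMGB1 (median 853748). Depth also moved with irradiation, with a median of 588344 ends in the 4 libraries at 0 Gy and 835977 in the 12 irradiated ones. The part of depth in the irradiation comparisons was not tested. No label says whether the replicates of a group came from separate cultures, so p-values measure the spread between these libraries, which may be technical. Break ends check neither the silencing of Hmgb1 nor the identity of the line.

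The upstream Scn2a promoter is shown because it held the most ends of the 5 member promoters found, the Scn1a promoter because the difference between the hairpins in that gene put the cluster forward, and an exonic stretch because it begins at the exonic position of Scn2a with the most ends. RefSeq (GRCm38.p6) gave 5 promoters for 4 members, each from 250 bases before to 50 after a gene start, and Scn3a had no entry. Over all 16 libraries the upstream Scn2a promoter (chr2:65620519-65620818, plus strand) held 4 ends, all in 1 shHMGB1 library, and 86.0% of all promoters held fewer. The Scn1a promoter (chr2:66440788-66441087, minus strand) held 1 end, and 47.2% of promoters held fewer. Capitals in these sequences mark CG dinucleotides.
Scn2a upstream promoter: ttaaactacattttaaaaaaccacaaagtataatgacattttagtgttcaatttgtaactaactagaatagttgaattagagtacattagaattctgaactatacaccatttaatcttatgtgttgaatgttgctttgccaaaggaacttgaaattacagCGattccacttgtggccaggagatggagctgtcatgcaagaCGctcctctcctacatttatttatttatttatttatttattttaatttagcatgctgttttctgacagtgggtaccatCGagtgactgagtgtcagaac
Scn1a promoter: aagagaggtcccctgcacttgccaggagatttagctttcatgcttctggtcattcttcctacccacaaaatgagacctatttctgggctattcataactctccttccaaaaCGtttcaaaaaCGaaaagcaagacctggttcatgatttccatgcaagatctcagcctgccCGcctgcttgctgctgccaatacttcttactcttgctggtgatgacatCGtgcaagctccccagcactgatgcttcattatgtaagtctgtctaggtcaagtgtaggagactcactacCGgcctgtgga
The downstream Scn2a promoter held 2 ends, where 67.5% of promoters held fewer, and those of Scn9a and Scn7a held 0. Among 32851 promoters of the same length 47.2% held no end, so 0 ends was common. The 5 promoters held 3 to 9 CG dinucleotides, against a median of 7 over all promoters. TATAAA, searched on both strands, was found in 1 of the 5, the downstream Scn2a promoter, and in 13.6% of all promoters. TTCAGCACC, searched likewise, was found in 0 of the 5 and in 0.371% of all.

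In exon 17 of the 27 exons of the Scn2a-201 transcript, the first base of the exon (position 65717388 of chromosome 2, mm10) held 5 ends from 3 libraries, all at 10 Gy. The GENCODE M21 transcript reads 5′ to 3′ from this position as follows, with the position in capitals.
Scn2a exon 17, chr2:65717388-65717418, plus strand: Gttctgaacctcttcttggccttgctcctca
The first and last bases of exons, 56 edges in Scn2a, held 9 of the 78 exon ends of that gene, over 12732 exonic bases. These 9 ends lay at 3 edges, with 5 of them at the position shown. Exon edges of Scn3a and Scn7a held 1 end each, of 39 and 26 exon ends, and those of Scn1a and Scn9a held 0 of 42 and 47.

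Per kilobase the members held similar levels of ends. Scn2a was highest with 0.283 ± 0.0833 CPM per kb, followed by Scn9a with 0.271 ± 0.0813, Scn3a with 0.250 ± 0.0739, Scn1a with 0.227 ± 0.0797 and Scn7a with 0.207 ± 0.0697 (SD, n = 16 libraries). Each neighbouring pair in this order differed by less than the spread between libraries. The Scn9a level includes 2 adjacent intronic positions, described below, that made up 16.8% of its ends, and its place in the order rests in part on them. The 5003 protein-coding genes of at least 50 kb had a median of 0.287 CPM per kb, and the members stood above 24.5% (Scn7a) to 49.05% (Scn2a) of them. The sequence between members held comparable levels, from 0.183 ± 0.0995 CPM per kb between Scn1a and Scn9a to 0.237 ± 0.0372 between Scn2a and Scn1a. These levels lay near that of the genome, where 2651 megabase windows had a median of 0.248 CPM per kb. The 2 such windows that hold the span, and reach beyond it, had 0.351 and 0.227 CPM per kb in order along the chromosome. They stood above 77.4% and 38.2% of windows. Among 10 comparison genes for matrix and cytoskeletal proteins levels were far higher: Col1a1, a collagen gene, held 28.5 CPM per kb and Fn1, the fibronectin gene, held 9.59.

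**Figure D1:**
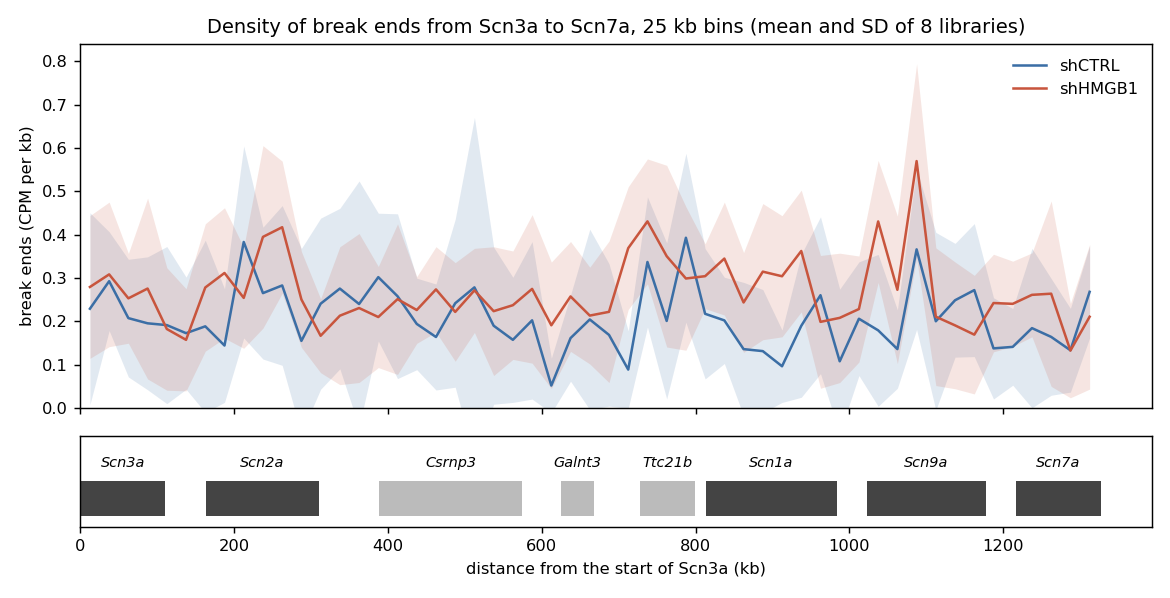
Density of break ends in 25 kb bins against distance from the start of Scn3a (x, kb; y, CPM per kb), with the mean of 8 libraries per hairpin as lines and the SD as shading; a last incomplete bin is not drawn. Dark bars mark the sodium channel genes and grey bars 3 genes between them. The highest shHMGB1 bin lies inside Scn9a and holds the recurrent pair of adjacent intronic positions described below.

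Ends were denser in exons than in introns when the 5 genes were summed. Exons held 232 ends, or 0.361 CPM per kb (95% Poisson interval 0.316 to 0.411), and introns held 0.251 CPM per kb. The interval pools 16 libraries, covers counting error only and treats ends that share a position as independent. By library the exon density was 0.354 ± 0.125 and the intron density 0.240 ± 0.0511 CPM per kb (SD, n = 16 libraries). Scn2a differed most, with 0.538 CPM per kb in exons and 0.268 in introns. In Scn3a, Scn9a, Scn1a and Scn7a the exon density was 0.275, 0.323, 0.331 and 0.311 CPM per kb, and the intron density was 0.254, 0.281, 0.234 and 0.213. The Poisson intervals of the exon densities of Scn3a, Scn9a and Scn7a began at 0.196, 0.238 and 0.203 CPM per kb and included the intron densities. The ratio of exon to intron density was 2.01 in Scn2a and between 1.08 (Scn3a) and 1.46 (Scn7a) in the other members. Summed over genes it was 1.44 for the cluster, 1.19 for 6 pore genes elsewhere, 0.98 for 14 genes of other neuronal channel clusters, 1.16 for 6 neuronal markers and 1.49 for 5 blood cell markers. For channel partners and regulators it was 1.98, for mesothelial markers 2.76, for glial markers 1.30 and for genes of the channels' beta subunits 1.32. Genes between or beside the members had 1.12. In the 10 matrix and cytoskeletal genes the summed exon density was 24.8 CPM per kb, 5.12 times that of their introns. Single positions weigh on the ratio of Scn9a. Of its 454 intron ends 84 lay at the recurrent pair of positions described below, and 6 of its 47 exon ends lay at 1 position in 1 library.

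**Figure D2:**
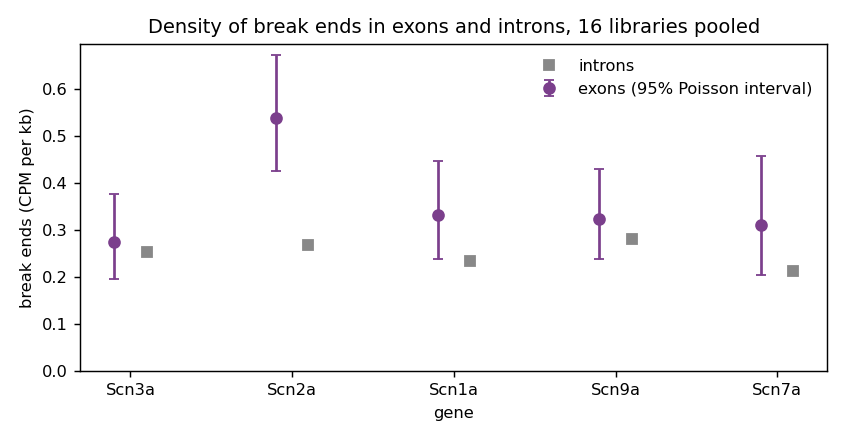
Break ends per kb in exons (circles, with 95% Poisson intervals of the pooled count) and introns (squares) of the 5 genes, pooled over 16 libraries (y, CPM per kb). The Scn2a exons stand highest, at 0.538 against 0.268 in its introns.

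Irradiated libraries were compared with unirradiated ones to ask whether gamma rays moved the ends within the cluster, over both hairpins with equal weight. Of the 5 members 0 were called at an adjusted p under 0.05 by edgeR's quasi-likelihood test, against 0.0234% of the 12832 genes tested, which were Timd2, Taco1 and Apol8, named here after their values were seen. At an unadjusted p under 0.05 the count was 1 of 5, Scn9a, against 7.19% of all genes tested, and DESeq2 called 0. The median log2 change of the members was 0.35, that of all genes tested -0.01 and that of 2439 tested long genes of low density 0.12.

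Scn9a had the largest difference. In shCTRL it held 20.6 and 17.9 CPM at 0 Gy, 39.9 and 30.4 at 3 Gy, 39.5 and 51.4 at 5 Gy, and 46.6 and 41.4 at 10 Gy. All 6 irradiated shCTRL libraries lay above both unirradiated ones, which rest on 10 and 7 ends. The lowest irradiated one, 3 Gy replicate 2, rests on 4 ends, 2 of them at the recurrent pair of positions described below. Without the pair it held 15.2 CPM, below the 16.5 CPM of 0 Gy replicate 1, so the full separation depends on the pair. In shHMGB1 it held 36.1 and 44.2 CPM at 0 Gy, 56.5 and 66.6 at 3 Gy, 44.3 and 54.7 at 5 Gy, and 45.5 and 35.1 at 10 Gy, and there the irradiated and unirradiated libraries overlapped. The fitted log2 change was 0.76 ± 0.25 (SE; edgeR quasi-likelihood, adjusted p = 0.477, and 0.278 to 0.998 over the alternatives). Gm13629, which shares part of these ends, had a log2 change of 0.51 ± 0.34.

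Scn2a was the only member with a fitted value below 0. In shCTRL it held 59.8 and 48.5 CPM at 0 Gy, 34.5 and 15.2 at 3 Gy, 33.3 and 26.7 at 5 Gy, and 45.4 and 30.7 at 10 Gy. Both unirradiated shCTRL libraries lay above all 6 irradiated ones, the lowest of which rests on 2 ends. Of the 29 ends behind the 59.8 CPM, 7 lay at 1 position hit in no other library. Without them that library fell just below the 45.4 CPM at 10 Gy, so the full separation in CPM depends on that position. Counted as distinct positions, scaled to those of a library, the unirradiated libraries held 67.5 and 77.7 and the irradiated ones at most 63.8. In shHMGB1 it held 46.3 and 40.8 CPM at 0 Gy and 37.5 to 62.6 CPM after irradiation, so the groups overlapped. Over both hairpins the log2 change was -0.26 ± 0.23 (SE; edgeR adjusted p = 0.849).

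Scn3a, Scn1a and Scn7a had log2 changes with irradiation of 0.48 ± 0.30, 0.35 ± 0.25 and 0.23 ± 0.31 (SE; edgeR adjusted p = 0.758, 0.789 and 0.913). Scn3a held 8.25 and 35.7 CPM in the 2 unirradiated shCTRL libraries, a spread wider than that of all irradiated libraries together, 18.8 to 40.7 CPM. Scn7a held 16.5 to 26.0 CPM in the 4 unirradiated libraries and 11.4 to 38.6 CPM in the 12 irradiated ones. The 2 groups overlapped for each of these 3 genes.

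**Figure D3:**
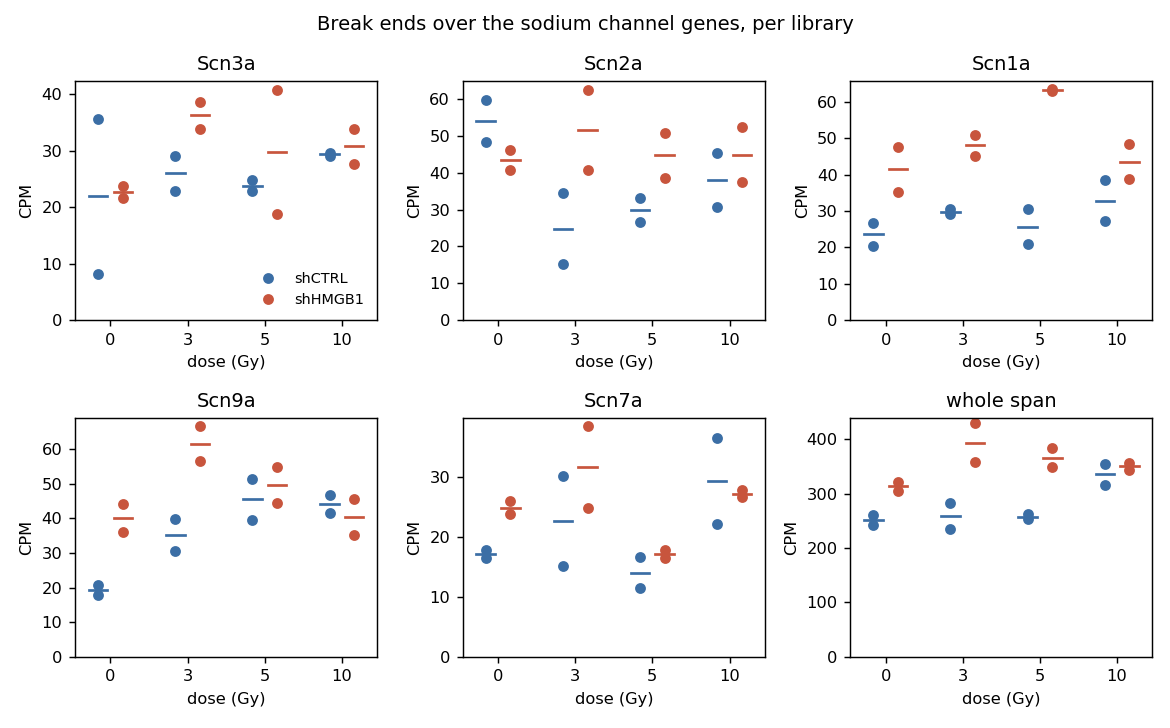
Break ends over each gene and over the whole span from Scn3a to Scn7a (y, CPM) by dose (x, Gy). Each point is a library and each short line the mean of 2; in shCTRL, Scn9a is lowest and Scn2a highest at 0 Gy.

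The response to irradiation was then compared between the hairpins. No member was called (0 of 5 by edgeR, against a background of 0.0% of 12832 genes; 1 of 5 and 672 of all genes at an unadjusted p under 0.05; 0 by DESeq2). The difference of responses, shHMGB1 minus shCTRL, was 0.92 ± 0.46 log2 units for Scn2a (SE; edgeR adjusted p = 0.937) and -0.75 ± 0.51 for Scn9a (adjusted p = 0.978). An interval of 2 SE around these values runs from 0.01 to 1.84 for Scn2a and from -1.76 to 0.27 for Scn9a, so a difference of 1 log2 unit in the direction of the fitted value lies inside both. The values for Scn3a, Scn1a and Scn7a were 0.19 ± 0.60, 0.10 ± 0.51 and -0.31 ± 0.62 (SE).

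**Figure D4:**
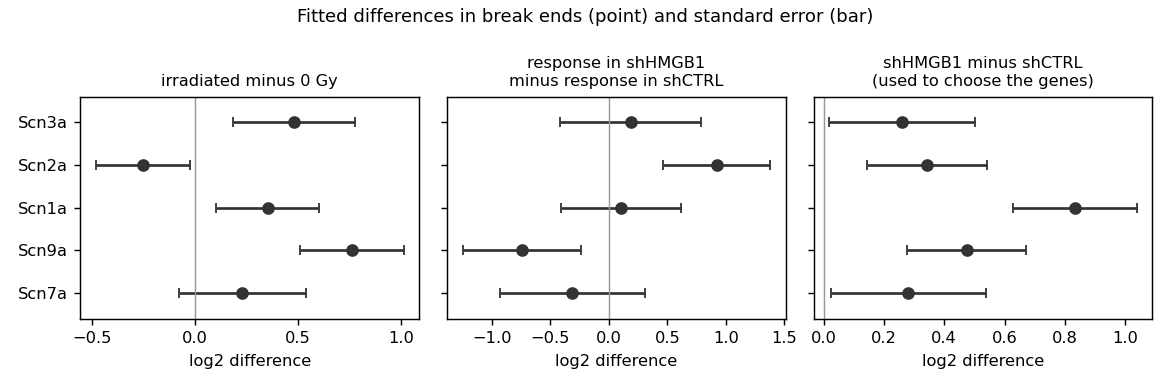
Fitted log2 differences (points) with standard errors (bars) for the 5 genes: irradiated minus 0 Gy, the difference of that response between hairpins, and shHMGB1 minus shCTRL, whose values were known when the genes were chosen. Scn9a is highest on the left, Scn2a in the middle and Scn1a on the right.

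Windows of 100 kb cover the sequence that gene bodies leave out. Of the 14 windows touching the span 0 were called, against 0.00796% of 25127 windows, which are 2 windows on chromosomes 7 and 17; 4 of the 14 had an unadjusted p under 0.05, against 7.76% of all windows, and DESeq2 called 0 windows anywhere. Their log2 changes with irradiation ran from -0.64 ± 0.27, over the 3′ end of Scn2a, to 0.70 ± 0.35, over the 5′ end of Scn3a and the gap beside it, and 10 of 14 were above 0 (SE; edgeR). The gap between Scn3a and Scn2a held 0 ends in both unirradiated shCTRL libraries, which allows up to 6.19 and 7.65 CPM (3 ends), and 6.24 to 19.05 CPM in the 6 irradiated shCTRL libraries, from 1 to 14 ends. In shHMGB1 it held 2.89 and 12.5 CPM at 0 Gy, 14.7 and 17.3 at 3 Gy, 15.5 and 11.5 at 5 Gy, and 4.95 and 6.05 at 10 Gy. There both 10 Gy libraries lay between the unirradiated ones. Fitted values of the genes in the wide gap were 0.24 ± 0.23 for Csrnp3, -0.44 ± 0.46 for Galnt3 and 0.06 ± 0.30 for Ttc21b, and none of them was called.

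The comparison of hairpins at all doses is the one that put the cluster forward, and it is described without a test. Scn1a held 26.8 and 20.4 CPM at 0 Gy, 29.1 and 30.4 at 3 Gy, 20.8 and 30.5 at 5 Gy, and 38.4 and 27.2 at 10 Gy in shCTRL. In shHMGB1 it held 47.7 and 35.2 CPM at 0 Gy, 50.9 and 45.3 at 3 Gy, 63.1 and 63.6 at 5 Gy, and 48.5 and 38.7 at 10 Gy. Of the 33 ends behind the 47.7 CPM, 7 lay at 1 position hit in no other library. Within each dose both shHMGB1 libraries lay above both shCTRL libraries, and across doses only the highest shCTRL library lay above the lowest shHMGB1 library. The fitted log2 difference was 0.83 ± 0.21 (SE). Scn1a was among the 7 genes called higher in shHMGB1, 0.0546% of 12832, while 0 members were among the 0.164% called lower, and nothing is read from these counts.

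The other members had smaller fitted differences between the hairpins: 0.47 ± 0.20 for Scn9a, 0.34 ± 0.20 for Scn2a, 0.28 ± 0.26 for Scn7a and 0.26 ± 0.24 for Scn3a on the log2 scale (SE). All 5 were above 0, with a median of 0.34. So were 1872 of the 2439 long genes of low density, whose median was 0.18, while the median of all genes was 0.03 and that of the 10 matrix and cytoskeletal genes -0.33, with 0 of the 10 above 0. The summed level of those 10 genes was 2928 to 4824 CPM in shCTRL and 1591 to 3686 in shHMGB1. Of 6 neuronal marker genes 5 were tested, all with fitted values above 0 (median 0.23). The summed level of the 6 was 190.2 to 342.9 CPM in shCTRL and 277.0 to 344.9 in shHMGB1. Of 5 blood cell markers 3 were tested, all 3 above 0 (median 0.30). Of 8 mesothelial markers 3 were tested, with 1 above 0 (median -0.75), and of 5 glial markers 0 were tested. Depth also moved with the hairpin, and the part of these shifts in the differences of the members was not tested. Under 17 of the 25 alternatives that gave it an adjusted p, Scn1a was not among the genes called. In 12 of the 17 a library was left out, which was any but shCTRL at 10 Gy replicate 1, shCTRL at 3 Gy replicate 2, shCTRL at 0 Gy replicate 1 or shHMGB1 at 3 Gy replicate 1. Its log2 difference was 0.74 to 0.94 with a library left out and 1.15 with thinned libraries. These counts describe the choice of the cluster and test nothing.

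Counted as distinct positions, which takes repeated ends out, Scn1a held 28.8 to 61.8 positions in shCTRL (median 38.4), scaled like CPM but to the distinct positions of a library, and 49.2 to 79.2 in shHMGB1 (median 63.1). With every library thinned to 131430 ends, 0 to 5 positions of Scn1a remained in shCTRL (median 3.5) and 3 to 10 in shHMGB1 (median 7). The ranges of the hairpins overlapped on both scales. Along Scn1a the hairpins were level in the first of 5 equal parts counted from its 5′ end, where shCTRL held 7.28 ± 3.74 CPM and shHMGB1 7.06 ± 3.96 (SD, n = 8 libraries each). In the next it was 5.30 ± 4.29 CPM against 12.7 ± 4.53, and in the last 6.37 ± 3.01 against 11.02 ± 2.57. Of the 85 shHMGB1 ends in the second part, 7 lay at 1 position in 1 library, shHMGB1 at 0 Gy replicate 1. In Scn9a the first part from the 5′ end held 7.33 ± 4.29 CPM in shCTRL and 6.04 ± 5.29 in shHMGB1. The second part held 6.68 ± 3.21 and 6.56 ± 3.34. The last part, which lies inside the stretch shared with Gm13629, held 6.11 ± 3.71 CPM in shCTRL and 12.8 ± 3.70 in shHMGB1. This was the largest difference among the 5 parts of Scn9a, and 6 of the 85 shHMGB1 ends there lay at 1 position in 1 library.

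A single place in Scn9a was hit in every library. Position 66555805 of chromosome 2 (mm10), in an intron (chr2:66551720-66562345) and 4.09 kb from the nearest exon, held 70 ends and was hit in 16 of 16 libraries. The adjacent position 66555804 held 14 more ends in 10 libraries, and the pair made up 16.8% of all ends in the gene. Outside the densest regions of the genome, 1996 of 6200607 hit positions (0.0322%) were hit in all 16 libraries. At least 1 of these lay in 279 of the 5003 genes of at least 50 kb (5.58%). The next most hit position of the cluster, 66263289 between Ttc21b and Scn1a, held 10 ends in 7 libraries.

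The recurrent pair held 2 to 7 ends per library in shCTRL and 3 to 15 in shHMGB1. Its level was 6.74 ± 2.50 CPM in the 4 unirradiated libraries and 7.69 ± 4.33 in the 12 irradiated ones (SD), and the difference of 0.94 CPM was within the spread. On log2 values an exact two-sided permutation test within hairpins gave p = 0.767. With these 2 positions left out, an alternative added after seeing the data, the log2 change of Scn9a with irradiation was 0.89 (edgeR adjusted p = 0.429). The fitted irradiation difference of Scn9a was thus as large without the recurrent pair as with it, though irradiated and unirradiated shCTRL libraries then overlapped.

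**Figure D5:**
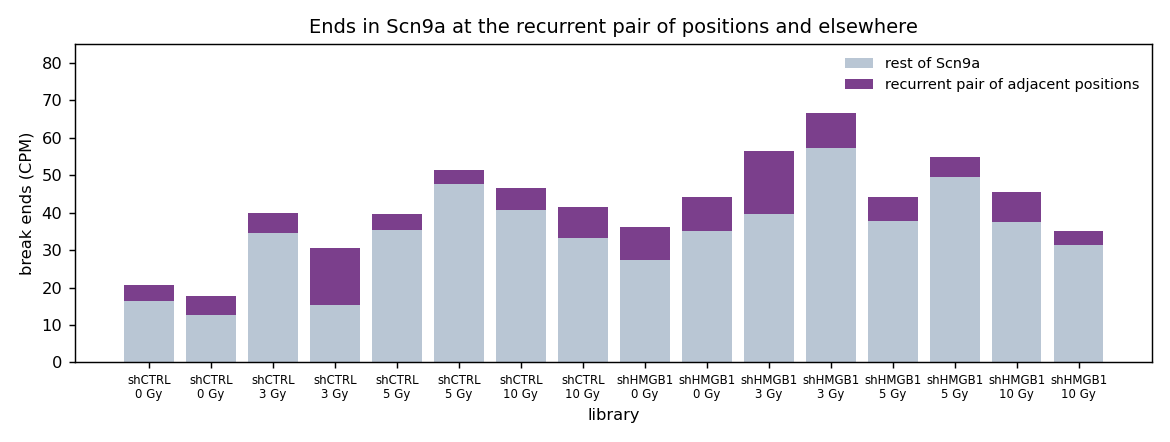
Break ends in Scn9a (y, CPM) in each of 16 libraries (x), split into the recurrent pair of adjacent intronic positions (dark) and the rest of the gene (light). The pair is present in every library, at 3.63 to 17.0 CPM.

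Other genes of the sodium channel family and pathway gave no calls in either tested comparison. Of all 12832 genes 0.0234% were called for irradiation and 0.0% for the difference in response, so nothing is read from this. Of 6 pore genes outside the cluster 5 were tested, with a median log2 change with irradiation of 0.18. Nalcn, a leak channel gene, held the most ends (621), followed by Scn8a with 310. Of 12 channel partners and regulators 11 were tested. Fgf12, Fgf14 and Nedd4l had the most ends: Fgf12 and Fgf14 encode intracellular modulators of the channels and Nedd4l a ubiquitin ligase. Fgf12 had an irradiation change of 0.39 ± 0.18 (SE; edgeR adjusted p = 0.666). Of 14 genes in 4 other clusters of GABA receptor and potassium channel genes, 11 were tested and 0 were called, with a median irradiation change of 0.29.

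Across the 16 libraries the members rose and fell together only loosely. Pearson's r between pairs of members ran from 0.08 for Scn1a with Scn7a to 0.57 for Scn1a with Scn9a; all genes of a library share its depth and its share of ends in dense regions, so these values are descriptive. Among 10805 protein-coding genes outside the cluster, the sum of the members was most like Lsamp (r = 0.903), Grm7 (0.877), Rbfox1 (0.874), Gpc5 (0.869) and Tmprss11d (0.868). Scn1a alone was most like Pof1b (r = 0.834), Apol6 (0.827), Cep128 (0.817) and Tmprss11d (0.809). These are the highest of 10805 correlations over 16 libraries. Pof1b, Apol6 and Tmprss11d averaged only 6.06, 7.25 and 7.0 ends per library, so no likeness is read from them.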

How the data were processed

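Each of 16 files holds, per the file contents, clusters of break ends with the end position of every molecule and a deposited count, not normalised by the authors. Per the submitters' processing notes, Trimmomatic 0.32, UMI-tools, BWA 0.7.5-r404, SAMtools and bedtools were used, with build mm10. Each end was placed at its own position, made 1-based. Ends on the main chromosomes were counted in gene bodies (GENCODE M21) and 100 kb windows. CPM divides these counts by a library's ends on the main chromosomes. edgeR 4.0.16 (R 4.3.3) fitted 8 group means with TMM factors, filterByExpr and Benjamini-Hochberg adjustment over all features. The fit was also run on simulated counts, in which only genes with more ends than most members were changed. That run does not show how the fit performs at the depth of those members. DESeq2 1.42.0, Python 3.11.15 and scipy 1.17.1 were also used. Members, lists and the rule for named genes (members, genes between them, and of each list those with the most ends) were chosen with earlier results of these data known. Clusters with 1000 or more ends, padded by 1 kb and merged, made 32 dense regions. Alternatives were DESeq2, no TMM, no low-count filter, distinct positions, at most 3 ends per position, thinning, no dense regions, only 10 Gy and 0 Gy, 1 Mb windows, replicate blocks and each library left out. Leaving out the recurrent position was added after seeing the data. A few results that the naming rule would print are not reported here.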

Additional observations from a re-analysis of the deposited data

How the results depend on the processing

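The counts of calls over all genes and windows moved readily with the processing, and no alternative called a member for irradiation or for the difference in response. For irradiation, 3 genes were called, and 0 with DESeq2, 1 with at most 3 ends per position, 0 with thinned libraries and 19 with the replicate block within each line; leaving out a library gave 1 to 10. For windows, 2 were called, and 0 with 1 Mb windows, DESeq2, at most 3 ends per position or distinct positions, 1 with thinned libraries or without dense regions and 15 at 10 Gy only. The replicate block gave 5 windows and that within each line 8; leaving out a library gave 0 to 8. Between the hairpins 28 genes were called, and 66 with distinct positions, 12 with thinned libraries and 136 (44 of them higher) with the replicate block within each line; leaving out a library gave 5 to 114. For the difference in response the count was 0 throughout except for 1 gene without shCTRL at 0 Gy replicate 1.

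Replicate numbers are shared between groups. Differences between replicates 1 and 2 correlated only from -0.09 to 0.03 between hairpins, 0.05 to 0.06 within shCTRL and 0.02 to 0.06 within shHMGB1. The main fit did not take the numbers as pairs, but few ends per gene weaken such correlations. In shCTRL, dense regions held 24.6% to 26.7% of ends in replicate 1 and 18.3% to 22.0% in replicate 2. TMM factors there were 0.93 to 0.95 and 1.05 to 1.16. In shHMGB1 the replicates overlapped in both. What sets the shCTRL replicates apart was not tested. The plain replicate block called 4 genes for irradiation and 37 between the hairpins.

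The median share of a library's ends in the span was 0.0320%. It was 0.0420% with distinct positions or with at most 3 ends per position, 0.0293% with thinned libraries and 0.0403% without dense regions; leaving out a library gave 0.0317% to 0.0322%. Among members, the irradiation change of Scn1a was -0.25 with thinned libraries, where it was the only member left to test. The difference in response changed sign with 10 Gy only for Scn1a (-0.34) and Scn3a (-0.041). Leaving out a library gave -0.23 to 0.38 for Scn1a (below 0 without shCTRL at 0 Gy replicate 1 or shHMGB1 at 0 Gy replicate 2), -1.01 to 0.86 for Scn3a (below 0 without shCTRL at 0 Gy replicate 2 or shHMGB1 at 5 Gy replicate 2) and -0.43 to 0.033 for Scn7a (above 0 without shCTRL at 3 Gy replicate 1). The cause was not tested for any of these. Thinning and the low-count filter leave fewer genes tested, and few ends per gene limit all values for single genes.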
